A study of Mus musculus with 12 samples.

Results

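Integrins are cell surface receptors made of 1 alpha and 1 beta subunit that bind extracellular matrix, complement fragments or proteins on neighbouring cells. In macrophages the beta 2 subunit (Itgb2) pairs with Itgam, Itgal or Itgax to form the leukocyte integrins, of which Itgam with Itgb2 is CD11b/CD18, complement receptor 3. Itgav pairs with Itgb3, Itgb5 and Itgb1 among others and binds vitronectin and latent TGF-beta, while Itgb1 with Itga4 binds VCAM-1 and fibronectin and with Itga6 binds laminin. The 10 integrin subunit genes described here are Itgam, Itgb2, Itgb3, Itgb5, Itgav, Itga6, Itga4, Itgal, Itgax and Itgb1, taken by name from 18193 genes on the array, and each was read by its brightest probe set, judged by the mean of the 12 arrays.

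The cells came from female mice of the inbred strains C57BL/6 and Balb/c, in 4 groups of 3 mice. In each strain one group was given a single X-ray dose of 10 Gy over the forebrain at 6.5 weeks of age, in a field 1 cm across, and the other a sham treatment. CD11b+ cells of the hippocampus were sorted 1 month later, at 10.5 weeks, and each array held the RNA of 1 mouse after repeated linear amplification. The sort was made on CD11b, the product of Itgam, so every group was chosen for having this protein, and the labels name no further marker in it.

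Values are log2 expression levels normalized by the authors, which ran from 2.23, the bottom of the scale, to 16.2. A gene was tested where it was above 5 in at least 3 arrays, which 9120 of the 18193 genes and 8 of the 10 integrin genes were. Itgal was above 5 in 2 arrays and Itgax in 0, and these are given by their values. Differences are log2 differences from 1 limma model of the 4 groups with their standard error (SE), and a gene was called where its p-value adjusted over all tested genes by Benjamini and Hochberg was under 0.05. Levels of different genes were not compared, since probe sets differ in how strongly they bind.

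The sorted cells carried the microglial marker Tmem119 at 13.8 to 14.2 and P2ry12 at 13.8 to 14.3 in all 12 arrays. Of the other markers, Mrc1 of border-associated macrophages lay between 11.1 and 12.7, S100a8 of neutrophils between 5.75 and 11.3, and the T cell genes Cd3e and Cd3g at the bottom of the scale in every array. Gzma of T and NK cells lay between 2.32 and 8.56. A value at the bottom does not show that a cell type was absent. The endothelial gene Pecam1 was also there in every array, with the endothelial gene Cldn5 at 9.17 to 10.5. In bulk samples, more or fewer cells of a type and more or less RNA per cell cannot be told apart. The 3' minus 5' difference of the Actb and Gapdh control probe sets, which is larger where the amplified RNA is shorter, was 3.50 to 3.81 in the sham arrays and 3.55 to 3.77 in C57BL/6 irradiated arrays. In Balb/c irradiated arrays it was 3.70 in replicate 1, 4.82 in replicate 2 and 4.21 in replicate 3. The 18S ribosomal RNA control signal was 10.5 to 11.6 in Balb/c irradiated and 11.6 to 11.8 in C57BL/6 irradiated arrays, against 11.9 to 12.3 in both sham groups.

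Of the 10 genes, 6 had a promoter in the RefSeq table for GRCm38.p6, and the 250 bases before the start are shown for Itgam, the gene of the sort marker and lower after irradiation on average, and for Itga4, which was higher on average. Capitals mark GAGGAA or its reverse complement TTCCTC, a sequence bound by PU.1, a transcription factor of macrophages. Shorter or other forms of its site were not searched and are not marked. Itgam lies at chr7:128062390-128062639 and Itga4 at chr2:79255176-79255425, both on the plus strand.
Itgam: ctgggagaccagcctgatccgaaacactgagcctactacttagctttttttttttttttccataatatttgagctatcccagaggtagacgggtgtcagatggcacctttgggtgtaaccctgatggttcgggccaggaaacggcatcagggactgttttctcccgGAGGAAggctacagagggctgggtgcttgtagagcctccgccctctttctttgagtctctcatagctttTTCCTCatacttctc
Itga4: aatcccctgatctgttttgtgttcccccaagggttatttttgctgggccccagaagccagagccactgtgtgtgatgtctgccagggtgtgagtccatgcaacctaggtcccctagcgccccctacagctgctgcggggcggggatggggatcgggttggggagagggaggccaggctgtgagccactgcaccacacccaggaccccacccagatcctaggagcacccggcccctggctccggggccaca
The Itgam window held 2 matches, at 84 to 79 bases and at 15 to 10 bases before the start, and the Itga4 window held 0. Of all 32851 windows of this length 23.3% held the motif on either strand, and of the 6 integrin windows 3 did (Itgam, Itgav and Itgb1). A match of these letters is a description and not a measured site.

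**Figure D1:**
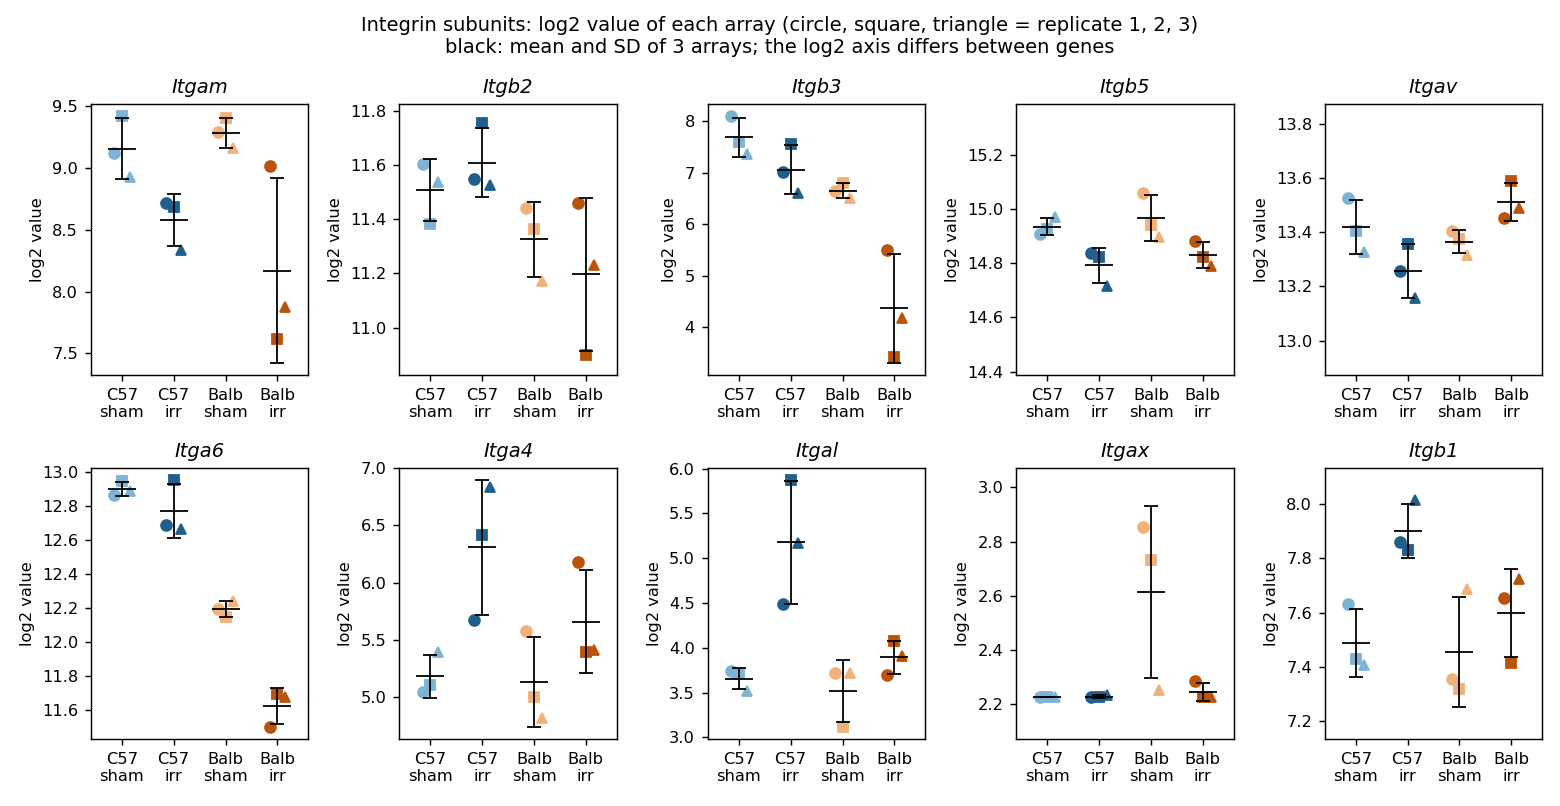
Log2 value (vertical axis, on a scale of its own for each gene) of the 10 integrin genes in each of the 12 arrays, by group of strain and treatment (horizontal axis; irr is irradiated), with circle, square and triangle for replicates 1, 2 and 3 and black marks for the mean and SD of 3 arrays. Itga6 and Itgb3 step down from C57BL/6 to Balb/c and are lowest in Balb/c irradiated arrays, at means of 11.62 and 4.37.

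The leukocyte integrins come first. Itgam, the alpha subunit of complement receptor 3, was lower after irradiation on average over both strains, by 0.84 ± 0.21 (log2 ± SE, limma, adjusted p = 0.0237). Its values were 9.12, 9.42 and 8.93 in C57BL/6 sham arrays and 8.72, 8.68 and 8.34 in C57BL/6 irradiated arrays (replicates 1, 2 and 3). In Balb/c they were 9.29, 9.40 and 9.16 in sham arrays and 9.02, 7.62 and 7.87 in irradiated arrays. Within each strain all irradiated arrays lay below all sham arrays, with Balb/c irradiated replicate 1 the closest to the sham arrays. The single strains were not called, with -0.58 ± 0.30 (limma, adjusted p = 0.294) in C57BL/6 and -1.11 ± 0.30 (adjusted p = 0.054) in Balb/c. The Balb/c value was -0.48 ± 0.24 (adjusted p = 0.377) with the 3' minus 5' difference as a covariate. Without Balb/c irradiated replicate 1 it was -1.54 and called (adjusted p = 0.00292). This left Balb/c irradiated replicates 2 and 3, the arrays with 3' minus 5' differences of 4.82 and 4.21. Itgam was then also called lower in Balb/c than in C57BL/6 in irradiated mice, at -0.83 (adjusted p = 0.0188). With all arrays this strain difference was -0.41 ± 0.30 (limma, adjusted p = 0.478). With the 3' minus 5' difference as a covariate it was 0.30 ± 0.25 (adjusted p = 0.742). The irradiation difference in Balb/c was also called, at an unchanged -1.11, with a filter at 7, the mean of the probe sets, trend and robust, and a replicate block, with adjusted p from 0.0348 to 0.0492. Leaving out any of 5 single arrays ended the call of the average, namely C57BL/6 sham replicate 2, C57BL/6 irradiated replicate 3, Balb/c sham replicates 1 and 2 and Balb/c irradiated replicate 3, with adjusted p from 0.0509 to 0.0585. It was -0.54 ± 0.15 (limma, adjusted p = 0.0518) with the 3' minus 5' difference as a covariate.

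Itgb2, the beta subunit shared by the leukocyte integrins, lay between 11.4 and 11.8 in C57BL/6 and between 10.9 and 11.5 in Balb/c arrays. Its difference after irradiation was 0.10 ± 0.15 in C57BL/6 (95% confidence interval -0.23 to 0.43) and -0.13 ± 0.15 in Balb/c (-0.46 to 0.20), and irradiated and sham arrays overlapped in both strains. In irradiated mice it was lower in Balb/c by 0.41 ± 0.15, with no overlap between the 3 arrays of either strain, but this did not pass (limma, adjusted p = 0.127). That strain difference was -0.14 ± 0.16 (limma, adjusted p = 0.836) with the 3' minus 5' difference as a covariate. Without Balb/c irradiated replicate 2 it was -0.26 ± 0.14 (adjusted p = 0.370).

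Itgal, the alpha subunit of LFA-1, was above 5 only in C57BL/6 irradiated replicates 2 and 3. It read 3.75, 3.71 and 3.52 in C57BL/6 sham and 4.49, 5.87 and 5.17 in C57BL/6 irradiated arrays. Balb/c sham arrays were at 3.72, 3.12 and 3.72 and Balb/c irradiated arrays at 3.70, 4.07 and 3.91. All C57BL/6 irradiated arrays thus lay above the other 9. The mean difference after irradiation, averaged over both strains, was 0.95 (p = 0.015, two-sided exact permutation of treatment inside each strain). In C57BL/6 alone it was 1.52 (exact permutation test, two-sided, p = 0.1, the smallest that 3 against 3 arrays can give) and in Balb/c alone 0.37 (the same exact test, p = 0.3). In the fit without a filter on dim genes, the average had an adjusted p of 0.0535 (limma, 18193 genes). Itgax, the alpha subunit of complement receptor 4 and a gene of dendritic cells and activated microglia, did not rise above 2.85 in any array, and 8 of the 12 arrays were at 2.23. Only Balb/c sham replicates 1 and 2, at 2.85 and 2.73, and Balb/c sham replicate 3 and Balb/c irradiated replicate 1, at 2.25 and 2.28, stood off the bottom. Of 5 dendritic cell markers Flt3, Xcr1 and Ccr7 were under 5 in all arrays, Zbtb46 lay at 4.92 to 6.73, and Cd209a had means of 4.35 ± 1.11 and 5.94 ± 0.47 (SD, n = 3) in C57BL/6 sham and irradiated arrays and 4.17 ± 0.72 and 4.32 ± 0.45 in Balb/c. Their summed signal was 72.6 to 120 and 110 to 211 in C57BL/6 sham and irradiated arrays and 54.3 to 84.9 and 84.6 to 110 in Balb/c. Their part in the Itgal and Itgax values was not tested.

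The vitronectin-binding integrins showed the largest difference. Itgb3, the beta subunit of the vitronectin receptor, was lower after irradiation in Balb/c by 2.28 ± 0.44 (4.86-fold, limma, adjusted p = 0.0142). The Balb/c sham arrays read 6.65, 6.79 and 6.51 and the irradiated arrays 5.51, 3.43 and 4.17, with no overlap. In C57BL/6 the sham values were 8.10, 7.60 and 7.35 and the irradiated values 7.01, 7.56 and 6.60, which overlapped, and the difference was -0.63 ± 0.44 (limma, adjusted p = 0.424). The average over both strains was -1.45 ± 0.31 (limma, adjusted p = 0.0121). Balb/c irradiated replicates 2 and 3 lay below the level of 5 used for testing, so the size in Balb/c is rough, and with a floor at 4 it was -2.09 ± 0.37.

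The array with the lowest Itgb3 was also the one with the largest 3' minus 5' difference. Over the 12 arrays the correlation of Itgb3 with that difference was r = -0.86, and that of Itgam -0.79, Itgb2 -0.79, Itga6 -0.59, Itgb5 -0.25, Itga4 -0.19, Itgb1 -0.17 and Itgav 0.60. The correlation with the 18S signal, which was lower in both irradiated groups, was 0.83 for Itgam, 0.78 for Itgb3, 0.51 for Itga6, 0.50 for Itgb5, 0.49 for Itgb2, -0.14 for Itgb1, -0.29 for Itga4 and -0.45 for Itgav. The points share strain and treatment, and no p is given. With this difference as a covariate Itgb3 in Balb/c was -1.36 ± 0.35 (limma, adjusted p = 0.107). Without Balb/c irradiated replicate 2 it was -1.81 ± 0.39 (adjusted p = 0.0384). Balb/c irradiated replicate 1, whose 3' minus 5' difference of 3.70 lay within the sham range, had an Itgb3 value of 5.51, below all 9 arrays of the other groups. The 18S signal of this array, at 11.6, lay below the sham range of 11.9 to 12.3. The call in Balb/c was lost without Balb/c sham replicate 2 (adjusted p = 0.0565) and without Balb/c irradiated replicate 3 (adjusted p = 0.0535).

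**Figure D2:**
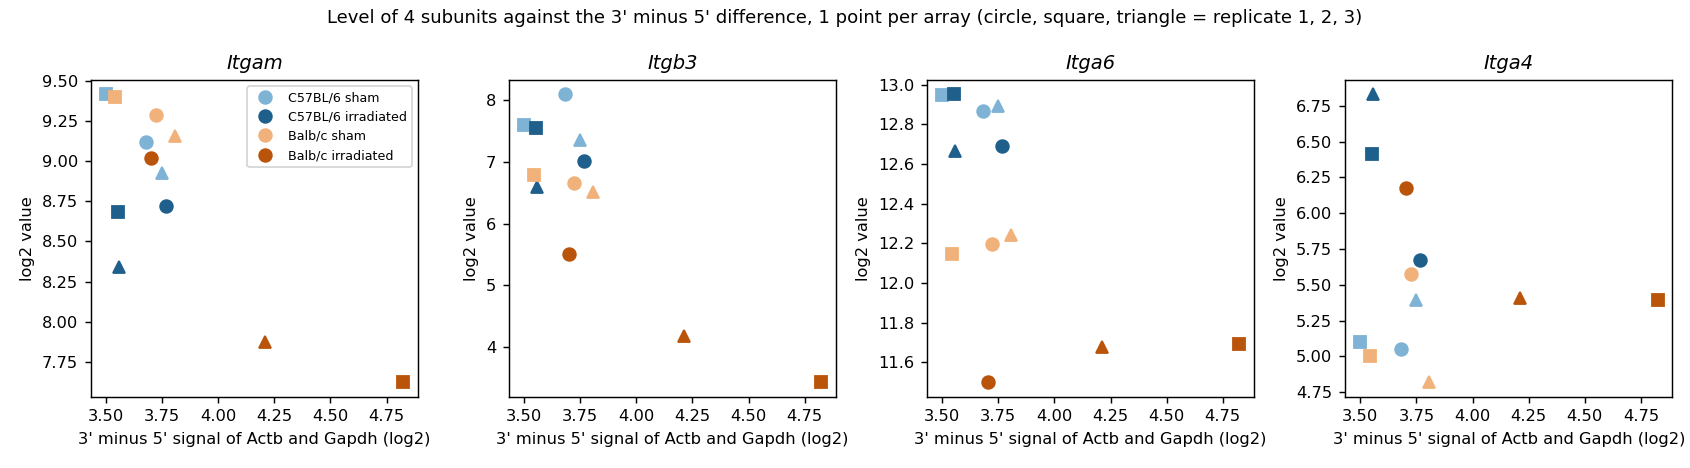
Log2 value of Itgam, Itgb3, Itga6 and Itga4 (vertical axes) against the 3' minus 5' log2 difference of the Actb and Gapdh control probe sets (horizontal axes), 1 point per array, coloured by group. Balb/c irradiated replicates 2 and 3, at 4.82 and 4.21, stand to the right of the other 10 arrays and have the lowest Itgam and Itgb3 values, while Itga6 is lowest in Balb/c irradiated replicate 1, at 11.50.

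Itgav and Itgb5 were bright and moved little. Itgav, the alpha subunit that pairs with both Itgb3 and Itgb5, lay between 13.2 and 13.6 in all arrays and was not called, with -0.16 ± 0.10 (95% confidence interval -0.38 to 0.06) in C57BL/6 and 0.15 ± 0.10 (-0.08 to 0.37) in Balb/c. The Balb/c irradiated arrays, at 13.45, 13.59 and 13.49, lay above the Balb/c sham arrays, at 13.40, 13.38 and 13.32. Itgb5, whose pairing with Itgav binds vitronectin, lay between 14.7 and 15.1. All 3 irradiated arrays were below all 3 sham arrays in each strain, but the differences of -0.14 ± 0.09 in either strain did not pass (limma, adjusted p = 0.391 in C57BL/6 and 0.427 in Balb/c). The intervals of Itgb5 ran from -0.35 to 0.06 in C57BL/6 and from -0.34 to 0.07 in Balb/c. The other 3 probe sets of Itgb5 had averages over both strains of -0.25 ± 0.09, -0.16 ± 0.07 and -0.26 ± 0.10, none called (limma over 14438 kept probe sets, adjusted p from 0.0909 to 0.191).

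Itga6, the alpha subunit of a laminin receptor, was lower after irradiation in Balb/c and lower in Balb/c than in C57BL/6 whether or not the mice were irradiated. The C57BL/6 sham values were 12.87, 12.95 and 12.89 and the C57BL/6 irradiated values 12.69, 12.95 and 12.67. The Balb/c sham values were 12.20, 12.15 and 12.24 and the Balb/c irradiated values 11.50, 11.69 and 11.68. The Balb/c irradiated arrays did not overlap with the Balb/c sham arrays, and neither overlapped with C57BL/6, while the C57BL/6 groups overlapped with each other. The difference after irradiation was -0.57 ± 0.11 in Balb/c (limma, adjusted p = 0.0136) and -0.13 ± 0.11 in C57BL/6 (adjusted p = 0.505). Between strains it was -0.71 ± 0.11 in sham mice (limma, adjusted p = 0.0016) and -1.15 ± 0.11 in irradiated mice (adjusted p = 6.79e-05), the latter 2.21-fold lower in Balb/c. These strain calls held under every alternative tried, with adjusted p up to 0.00899 in sham and 0.00519 in irradiated mice. The Balb/c call after irradiation was lost with the 3' minus 5' difference as a covariate (-0.64 ± 0.14, adjusted p = 0.068), where the difference was as large, and held without each array in turn (adjusted p up to 0.0474).

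The other probe set of Itga6 gave the same strain difference. It was lower in Balb/c by 0.86 ± 0.11 in sham mice (limma over 14438 kept probe sets, adjusted p = 3.98e-04) and by 1.03 ± 0.11 in irradiated mice (adjusted p = 1.12e-04). After irradiation it was -0.62 ± 0.11 in Balb/c (adjusted p = 0.0101). In C57BL/6 the probe sets differed in size, at -0.45 ± 0.11 (adjusted p = 0.0505) in this probe set against -0.13 ± 0.11 in the brighter one. Probe sequences were not analysed here, so a base difference between the strains under a probe and a difference in transcript level cannot be told apart.

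**Figure D3:**
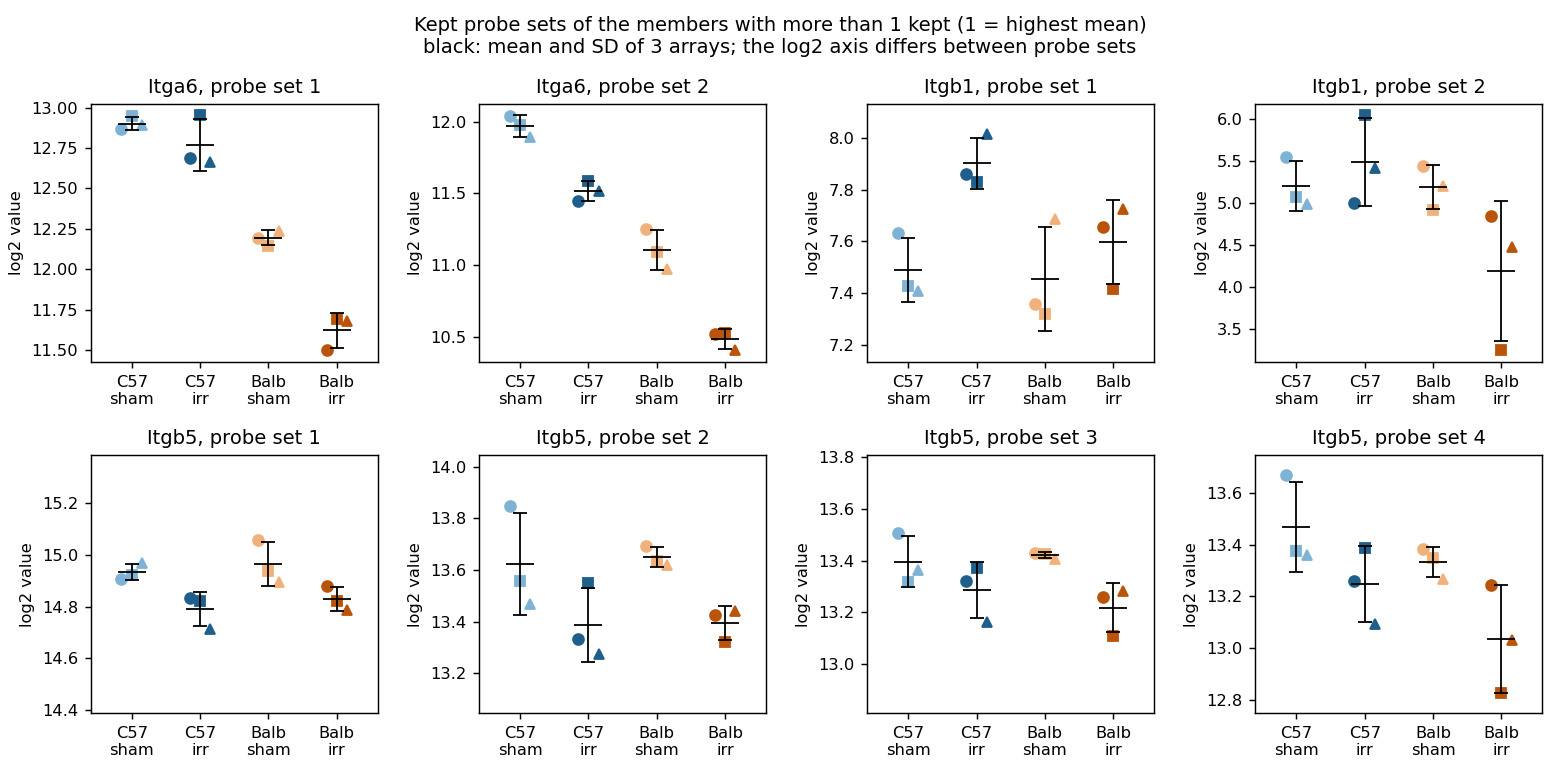
Log2 value (vertical axes) of each kept probe set of Itga6, Itgb1 and Itgb5 in the 12 arrays by group (irr is irradiated), with probe set 1 the one with the highest mean and black marks for the mean and SD of 3 arrays. Both Itga6 probe sets fall from C57BL/6 to Balb/c. The Itgb1 probe sets go different ways in Balb/c irradiated arrays, at means of 7.60 and 4.18, with neither difference called and the second under 5 in these arrays.

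Itga4, the alpha subunit of VLA-4, was the only tested member called higher, and only on average over both strains, by 0.83 ± 0.22 (limma, adjusted p = 0.0303). Its values were 5.05, 5.10 and 5.39 in C57BL/6 sham and 5.67, 6.41 and 6.83 in C57BL/6 irradiated arrays, which did not overlap. In Balb/c the sham values were 5.57, 5.0 and 4.82 and the irradiated values 6.18, 5.39 and 5.41, which did. The difference was 1.13 ± 0.31 in C57BL/6 (2.18-fold, limma, adjusted p = 0.0734) and 0.53 ± 0.31 in Balb/c (adjusted p = 0.354). Without C57BL/6 irradiated replicate 1 the C57BL/6 difference was 1.44 and called (adjusted p = 0.0371). Leaving out any of 7 single arrays ended the call of the Itga4 average over both strains, with adjusted p from 0.0522 to 0.0685. These were all but C57BL/6 sham replicate 3, C57BL/6 irradiated replicate 1, Balb/c sham replicate 1 and Balb/c irradiated replicates 2 and 3. Its other 4 probe sets stayed under 5 in all arrays.

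Monocytes, neutrophils, T cells and NK cells carry leukocyte integrins as well. The summed signal of 6 monocyte markers (Ccr2, Plac8, Cd44, S100a4, Chil3 and Fn1) on the linear scale was 516 to 1119 in C57BL/6 sham and 1968 to 2572 in C57BL/6 irradiated arrays. In Balb/c it was 783 to 985 in sham and 1488 to 2216 in irradiated arrays. Of these markers 4 were called higher in C57BL/6 and 2 in Balb/c (limma, adjusted p under 0.05), where 2.21% and 3.26% of all tested genes were called higher. None of them was under 5 in all arrays. In Balb/c 2 border-associated macrophage, 2 neutrophil and 3 astrocyte markers were also called higher, against 0 of each in C57BL/6. The summed signal of 6 border-associated macrophage markers was 6444 to 15579 and 13466 to 17750 in C57BL/6 sham and irradiated arrays and 5354 to 5990 and 8856 to 11484 in Balb/c. The summed signal of 7 T and NK cell markers was 64.7 to 151 in C57BL/6 sham and 219 to 407 in C57BL/6 irradiated arrays, and 33.7 to 34.5 and 34.3 to 318 in Balb/c; 6 of the 7 were under 5 in all arrays, and the remaining one is the granzyme Gzma. The summed signal of 5 neutrophil markers was 443 to 2315 and 462 to 1959 in C57BL/6 sham and irradiated arrays and 99.3 to 150 and 842 to 3519 in Balb/c. The part of these cells in the Itgam, Itga4 and Itgal values was not tested.

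Itgb1, the beta subunit of VLA-4 and of the laminin receptor with Itga6, was not called. It read 7.63, 7.43 and 7.41 in C57BL/6 sham and 7.86, 7.83 and 8.01 in C57BL/6 irradiated arrays, which did not overlap, with a difference of 0.41 ± 0.14 (limma, adjusted p = 0.119). In Balb/c the sham values were 7.36, 7.32 and 7.69 and the irradiated values 7.65, 7.41 and 7.72, which overlapped, with a difference of 0.14 ± 0.14 (adjusted p = 0.574). A dimmer probe set of Itgb1 was at 0.29 ± 0.38 in C57BL/6 and -1.01 ± 0.38 in Balb/c, neither called (limma over kept probe sets, adjusted p = 0.711 and 0.164), so that the probe sets had opposite signs in Balb/c. In the dimmer probe set the Balb/c sham arrays read 5.44, 4.92 and 5.20. The Balb/c irradiated arrays read 4.84, 3.24 and 4.47, all under 5, and the lowest was replicate 2, which had the largest 3' minus 5' difference. The average over both strains of the brighter one was 0.28 ± 0.10 (limma, adjusted p = 0.0736), and it was called without Balb/c sham replicate 3 (0.34, adjusted p = 0.0396).

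Counted over the tested members, irradiation changed 0 of 8 in C57BL/6, where 3.67% of all tested genes were called, 2.21% higher and 1.46% lower. In C57BL/6, 2 members had an unadjusted p under 0.05 in limma, Itga4 and Itgb1, against 1945 of 9120 genes. In Balb/c, 2 of 8 were called lower, Itgb3 and Itga6, where 2.89% of all genes were called lower, 3.26% higher and 6.15% in either direction. On average over both strains 3 were called lower, Itgam, Itgb3 and Itga6, and 1 higher, Itga4, where 8.15% of all genes were called lower and 7.72% higher. The median difference of the 8 members was -0.14 in C57BL/6, -0.13 in Balb/c and -0.08 on average, against -0.04, -0.04 and -0.05 over all genes. The share of tested members called was 0% in C57BL/6, 25% in Balb/c and 50% on average, against 3.67%, 6.15% and 15.9% of all genes; each rests on 8 genes chosen with earlier results known.

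**Figure D4:**
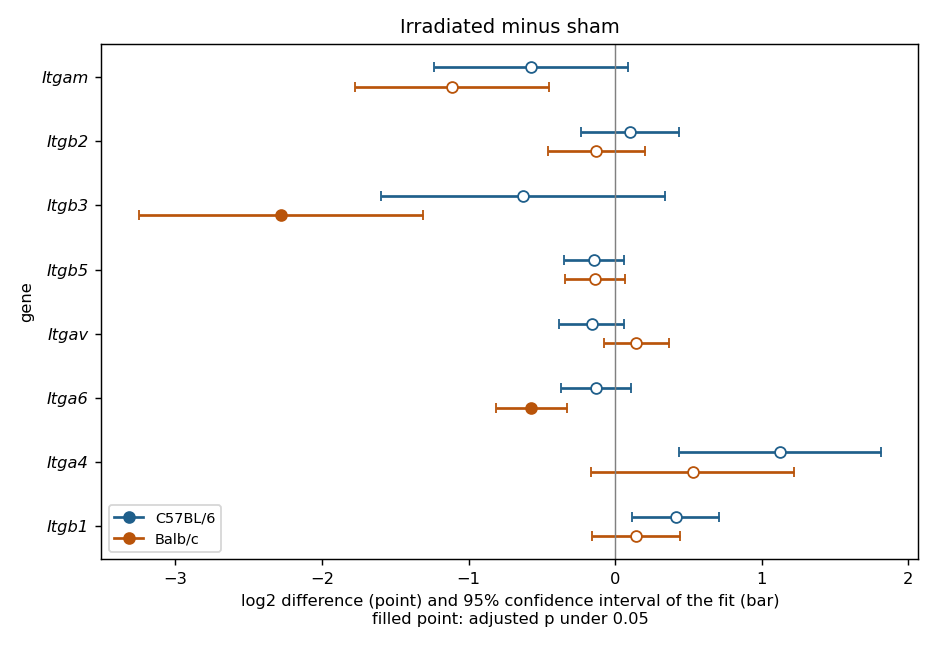
Log2 difference between irradiated and sham mice (horizontal axis, point) with its 95% confidence interval from the fit (bar) for the 8 tested integrin genes (vertical axis), in C57BL/6 and in Balb/c; filled points have an adjusted p under 0.05. Itgb3 at -2.28 and Itga6 at -0.57 in Balb/c are the filled points.

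The irradiation effects of the strains were compared directly by the interaction, the Balb/c effect minus the C57BL/6 effect. None of the 8 members was called, where 0.0768% of all genes were, 0.0439% with a positive and 0.0329% with a negative value, and 2 had an unadjusted p under 0.05 in limma against 735 of 9120 genes. These were Itgb3, at -1.65 ± 0.62 (95% confidence interval -3.02 to -0.28, limma, adjusted p = 0.558), and Itga6, at -0.44 ± 0.15 (-0.78 to -0.10, adjusted p = 0.558). For Itgav it was 0.31 ± 0.14 (-0.01 to 0.62), for Itga4 -0.60 ± 0.44 (-1.57 to 0.38) and for Itgam -0.54 ± 0.43 (-1.48 to 0.40). Calls in Balb/c that were missed in C57BL/6 are therefore not shown to differ between the strains.

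Between strains, 1 of 8 members was called in sham mice, Itga6, lower in Balb/c, where 5.24% of all genes were called lower, 5.22% higher and 10.5% in either direction. In irradiated mice 2 were called, both lower in Balb/c, Itga6 and Itgb3, where 4.59% of all genes were called lower, 4.38% higher and 8.97% in either direction. Itgb3 was at -2.69 ± 0.44 in irradiated mice, 6.44-fold lower in Balb/c (limma, adjusted p = 0.00284). In sham mice it was -1.03 ± 0.44 (adjusted p = 0.188), with all Balb/c arrays below all C57BL/6 arrays, and was called without Balb/c irradiated replicate 1 (adjusted p = 0.0485) and from the compared groups alone (adjusted p = 0.0289). In irradiated mice it remained called with the 3' minus 5' difference as a covariate, at -1.66 ± 0.37 (limma, adjusted p = 0.0374). Of the uncalled members, Itgav was at 0.25 ± 0.10 (adjusted p = 0.161) and Itgb1 at -0.30 ± 0.14 (adjusted p = 0.213) in irradiated mice, neither with overlapping arrays. The irradiated arrays enter both the strain and the irradiation comparisons, so these are not independent of each other.

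**Figure D5:**
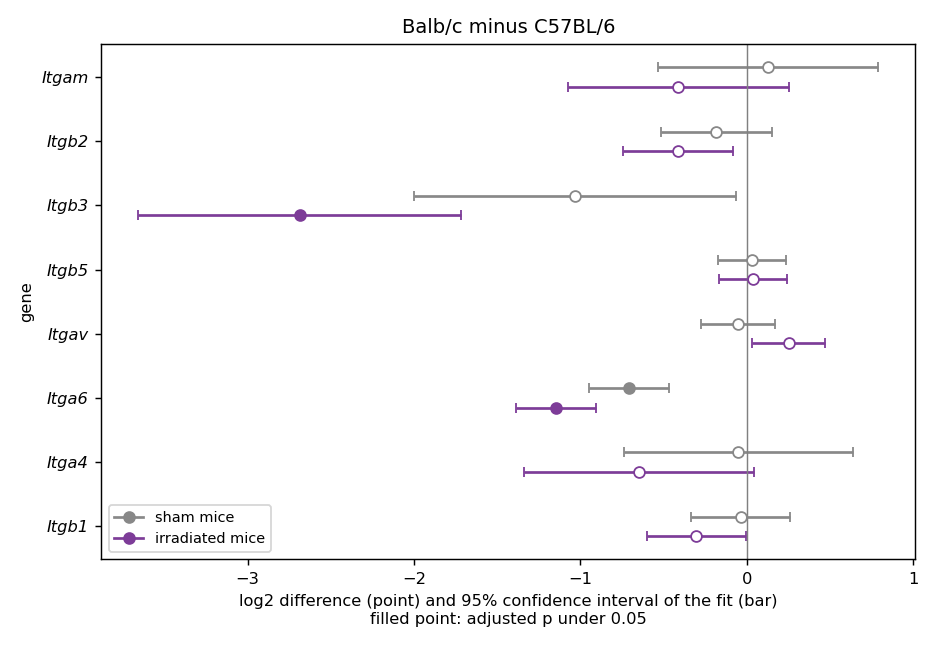
Log2 difference between Balb/c and C57BL/6 (horizontal axis, point) with its 95% confidence interval from the fit (bar) for the 8 tested integrin genes (vertical axis), in sham and in irradiated mice; filled points have an adjusted p under 0.05. Itga6 is filled in both, at -0.71 and -1.15, and Itgb3 in irradiated mice, at -2.69.

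Of 16 other integrin subunit genes, 14 were on the array and 4 were tested. Itga9, an alpha subunit that pairs with Itgb1, was lower in Balb/c by 1.20 ± 0.18 in sham mice (limma, adjusted p = 0.00149) and by 1.07 ± 0.18 in irradiated mice (adjusted p = 0.00364). Itgb8, which with Itgav activates latent TGF-beta, was higher after irradiation on average by 1.28 ± 0.38 (limma, adjusted p = 0.0449). It was not called in the single strains, at 1.12 ± 0.54 in C57BL/6 (limma, adjusted p = 0.259) and 1.44 ± 0.54 in Balb/c (adjusted p = 0.142). The summed signal of 6 astrocyte markers was 10215 to 15168 in C57BL/6 sham and 17584 to 24255 in C57BL/6 irradiated arrays, and 11880 to 16182 and 21879 to 33619 in Balb/c. Its part in the Itgb8 value was not tested. The remaining tested subunits, Itga8 and Itgae, were not called in any comparison. Of 5 platelet markers, which bear on Itgb3 as a platelet integrin, Itga2b, its platelet partner, and Gp1bb were under 5 in all arrays and Pf4 was at 11.2 to 12.8. Gp9 had means of 7.95 ± 0.15 and 6.95 ± 0.39 (SD, n = 3) in C57BL/6 sham and irradiated arrays and 7.16 ± 0.15 and 5.07 ± 0.84 in Balb/c. The group means of Itgb3 had the same order within each strain. Gp9 was called lower after irradiation in Balb/c. Pf4 had the opposite order, with means of 12.12 and 12.75 in C57BL/6 sham and irradiated arrays and 11.41 and 11.83 in Balb/c, and was not called in either strain. The summed signal of the 5 markers, most of it from Pf4, was 3703 to 6406 and 6662 to 7396 in C57BL/6 sham and irradiated arrays and 2579 to 3317 and 3330 to 4030 in Balb/c. The part of platelets in the Itgb3 values was not tested.

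Of 45 genes of integrin activation and adhesion, 35 were tested, and 3 rose and 6 fell on average after irradiation (25.7% of those tested, against 15.9% of all genes). Vcl, the focal adhesion protein vinculin, rose by 0.70 ± 0.08 (limma, adjusted p = 6.25e-04). Dab2, an endocytic adaptor that binds beta subunit tails, rose by 1.19 ± 0.18 (adjusted p = 0.00219) and Fermt2, the integrin activator kindlin-2, by 0.65 ± 0.15 (adjusted p = 0.0175). Cd82, a tetraspanin, fell by 0.56 ± 0.12 (adjusted p = 0.00993). In C57BL/6, Dab2 rose by 1.11 ± 0.26 (limma, adjusted p = 0.0416) and Cd82 fell by 0.70 ± 0.16 (adjusted p = 0.0426), and these were the 2 genes called. In Balb/c, 3 rose and 2 fell, among them Vcl at 0.92 ± 0.12 (adjusted p = 0.00224) and the kinase Syk, which signals downstream of integrins, at -0.61 ± 0.13 (adjusted p = 0.0223). The median of the list on average was -0.07, against -0.05 over all genes. The summed signals of the monocyte and astrocyte markers were above the sham range in all irradiated arrays of each strain, as were those of the border-associated macrophage markers in Balb/c, while the latter overlapped in C57BL/6. Mrc1 had means of 11.81 and 12.49 in C57BL/6 sham and irradiated arrays and 11.24 and 12.21 in Balb/c, and the astrocyte gene Gja1 had 13.14 and 13.80 in C57BL/6 and 13.20 and 14.16 in Balb/c. The part of these cells in the values of Vcl, Dab2 and Fermt2 was not tested.

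Of 30 integrin ligand genes 13 were tested, and 5 rose and 2 fell on average after irradiation (53.8% of those tested, against 15.9% of all genes). Fibronectin (Fn1), bound by Itga4 with Itgb1, rose by 1.02 ± 0.13 (limma, adjusted p = 7.39e-04). Collagen IV (Col4a1) rose by 1.03 ± 0.16 (adjusted p = 0.00276) and vitronectin (Vtn) by 1.17 ± 0.21 (adjusted p = 0.00517). F11r, the junctional protein JAM-A that binds LFA-1, fell by 0.53 ± 0.10 (adjusted p = 0.00618). Between strains in sham mice, F11r was at -0.86 ± 0.14 (adjusted p = 0.00211), Vcam1, the ligand of VLA-4, at -1.54 ± 0.35 (adjusted p = 0.0166) and Jam3 at 0.65 ± 0.14 (adjusted p = 0.0107) in Balb/c against C57BL/6. The list had a median of 0.32 on average over both strains, against -0.05 over all genes. Fn1 is also in the list of monocyte markers, and the summed signal of 6 endothelial markers was 875 to 1393 in C57BL/6 sham and 1009 to 2266 in C57BL/6 irradiated arrays, and 875 to 1524 and 1562 to 2323 in Balb/c. Their part in these values was not tested.

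The genes whose values followed each member most closely over the 12 arrays were listed by Pearson correlation, which here describes arrays that share strain, treatment and RNA quality. For Itga6 they were F11r (r = 0.97), Rtn4rl1 (0.96) and Mettl23 (0.96). For Itgb3 they were Slc11a1 (0.97), Hk2 (0.96) and Tex261 (0.95), and for Itgam Mast3 (0.96), Hcfc1 (0.95) and Plxnb2 (0.95). Itga4 was closest to Cdca5 (0.91), Sdc3 (0.90) and Cybb (0.90), and Itgb1 to Ostf1 (0.93), Churc1 (0.91) and Myrip (0.90). Itgb2 was closest to Hipk1 (0.94), Ebi3 (0.93) and Adsl (0.92), Itgb5 to Slc44a2 (0.94), Anks1 (0.92) and Matk (0.92), and Itgav to Nsun4 (0.91), Skil (0.90) and Larp7 (0.89). Among the members themselves Itgb3 and Itga6 had the highest correlation, 0.86, and Itgb5 and Itgb1 the lowest, -0.79.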

How the data were processed

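The deposited table holds log2 expression for 45101 probe sets on 12 arrays. GCRMA is the tool named in the submitters' processing notes, and its version is not given in the sources used here. Sorted values were equal between arrays within 0.001. Scanner files were not used here. Of the probe sets, 34945 had 1 gene symbol, 932 several and 9160 none, beside 64 controls; only those with 1 symbol were used, and 34741 symbols were updated by Entrez identifier. limma 3.58.1 (R 4.3.3, lmFit and eBayes, 8 residual degrees of freedom) was fitted to 1 mean per group over all 9120 genes above 5 in at least 3 arrays, and was tested on simulated data. Exact permutation tests were used for Itgal and Itgax. Each array is 1 mouse, and precision is limited by having 3 of them in a group. The members and gene lists were chosen with earlier results of these data known, and other probe sets served as checks. All members were named, from each list up to 4 called genes by smallest p in a comparison, and the 3 genes closest to each member. The alternatives are given in the closing section. For irradiated C57BL/6 against irradiated Balb/c, the deviations from the group mean correlated above 0.1 (0.22 to 0.45) in all 3 same-numbered pairs of arrays. With 3 arrays in a group the deviations of a gene cancel out, so the 3 correlations are not independent. They do not establish a pairing, and the labels do not say what a number marks. The main fit took all arrays as unpaired, and a block for replicate number was used only as an alternative.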

Additional observations from a re-analysis of the deposited data

How the results depend on the processing

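Of 1106 repeats of the 48 member results under the alternatives (no filter or a filter at 7, a floor at 4, arrays centred on bright probe sets, a gene taken as the mean of its probe sets, every probe set as its own row, eBayes with trend and robust, array weights, only the compared groups, a block for replicate number, the 3' minus 5' difference as a covariate, leaving out arrays), 1070 kept their side of the threshold, 24 lost a call, 12 gained one and 0 changed sign with a call in either fit. Changes of sign where neither fit was called are counted among those that kept their side. With the 3' minus 5' covariate, Itgam between strains in irradiated mice went from -0.41 to 0.30. Itgb2 after irradiation in Balb/c went from -0.13 to 0.12. On average over both strains 4 members were called, and 1 with no filter (Itga6), 2 with the mean of all probe sets and 2 when C57BL/6 irradiated replicate 3 was left out together with Balb/c irradiated replicate 2; without single arrays the count ran from 2 to 4. In Balb/c the count was 2, but 0 with the 3' minus 5' covariate, 1 with no filter and 1 from the compared groups alone, and 1 to 3 without single arrays. Gains were Itgam in Balb/c (3 members) with the filter at 7 and with trend and robust, and on average (5 members) Itgb5 with trend and robust and Itgb1 with array weights. With the mean of the probe sets Itgam was called in Balb/c beside Itga6, and Itgb3 was not tested. In C57BL/6 0 were called, and 1, Itga4, at an adjusted p under 0.10, with 0 to 1 without single arrays. Between strains 1 was called in sham mice (2 from the compared groups alone, 1 to 2 without single arrays), and 2 in irradiated mice (1 with the mean of all probe sets, 2 to 3 without single arrays). No filter tests more genes, and the SE of Itgb3 after irradiation in Balb/c was 0.49 there against 0.44 in the main fit. The compared groups alone have fewer arrays. The part of each of these in the lost calls was not tested. The mean takes in dim probe sets, which put Itgb3, Itga4, Itgav and Itgb1 below the filter. The lower counts under the mean therefore leave out genes that were not tested there. Causes of the other changes were not tested.

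The count over all genes also depended on the setting. It was 335 in C57BL/6 and ran from 96 (compared groups alone) to 434 (trend and robust), 561 in Balb/c and from 104 (the 3' minus 5' covariate) to 762 (array weights), and 1447 on average and from 788 to 1538. Between strains it was 954 in sham mice (681 to 1163) and 818 in irradiated mice (336 to 903). Same-numbered arrays correlated above 0.1 in 9 of 18 pairs. Only between the irradiated groups did all 3 pairs pass and all 6 arrays correlate best with their own number; there the replicate block kept the calls of Itgb3 and Itga6, with 793 genes called against 818. In the other pairs of groups at most 2 pairs passed. With the block 3 members were called in Balb/c, Itgam beside Itgb3 and Itga6 (limma, adjusted p = 0.0492), and in the other comparisons the count of members was that without it. Itgal, Itgax and the Balb/c irradiated level of Itgb3 lie near the bottom of the scale, which limits how well their differences are measured.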
